A study of Homo sapiens with 4 samples.

Results

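The clustered protocadherins are 53 cell-surface adhesion genes that lie in 3 neighbouring clusters on chromosome 5, and they are described here in 4 RNA sequencing libraries of human neurons. They were taken by symbol alone: PCDHA1 to PCDHA13 with PCDHAC1 and PCDHAC2 (the alpha cluster, 15 genes), PCDHB1 to PCDHB16 (the beta cluster, 16 genes), and the A, B and C members of the gamma cluster (12, 7 and 3 genes). All 53 were present in every library, out of 28307 gene symbols in all, and each stood on a single row on chromosome 5. The alpha genes span chr5:140786136-141012346, the beta genes chr5:141051374-141249365 and the gamma genes chr5:141330685-141512979 (hg38), all on the plus strand.

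The cells were i3N-WTC11 neurons, excitatory neurons made from WTC11, an established human induced pluripotent stem cell line, and all 4 libraries came from cells that carry CAG-driven dCas9-KRAB, inserted into a CLYBL intron. Neurons aged 2 weeks received lentivirus made from lentiGuide-puro at a multiplicity of infection of about 3, then puromycin at 0.5 µg/mL for 4 days, and RNA was taken 7 days after the virus. The CRISPRi group (2 libraries) received guides against a transposable element of the MIR family on chromosome 11, with 2 guides per element. Which guide went into which CRISPRi library is not in the labels, so a difference between guides cannot be told apart from one between replicates. The KRAB repressor is meant to silence the DNA it is brought to. The control group (2 libraries) received the empty guide vector. The question put to the protocadherins was whether their levels, or the choice among them, differed between these groups, and since the target is not a gene there was no target transcript to check the labels by.

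Each protocadherin in these clusters is a cadherin-type receptor that binds the same isoform on a facing membrane, and the combination a neuron displays lets its branches recognise and avoid each other. In the alpha and gamma clusters every member has its own promoter and its own large first exon, which is spliced to a set of short exons shared by the whole cluster and encoding a common cytoplasmic tail, while beta genes have a single exon and no shared tail. Most members are switched on in a random few per cell, through promoter choice that depends on DNA methylation, on CTCF and cohesin, which loop a promoter to a distant enhancer, and on a conserved promoter element around the letters CGCT. The C-type members (PCDHAC1, PCDHAC2, PCDHGC3, PCDHGC4 and PCDHGC5) lie at the 3′ ends of their clusters and are expressed more uniformly from cell to cell. Bulk libraries average over cells, so choice in single neurons is not visible, and fewer cells using a gene and less RNA per cell cannot be told apart.

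The sequences that decide what a read can say about these genes are the exons they share. On GENCODE release 29 (GRCh38), the first shared exon is 59 bases long in both clusters and was present in all 15 alpha and all 22 gamma genes, and 39 of its 59 bases are the same in the alpha and gamma copies, which are printed 5′ to 3′.

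alpha shared exon 1, chr5:140978949-140979007: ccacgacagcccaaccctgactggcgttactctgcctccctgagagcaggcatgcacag
gamma shared exon 1, chr5:141494807-141494865: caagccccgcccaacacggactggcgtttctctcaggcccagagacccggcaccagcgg

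The second shared exon has 89 bases in each cluster, and the last and longest has 2718 bases in the alpha cluster and 2033 bases in the gamma cluster. In GENCODE the first 2 shared exons are in every member of their cluster, and the last is in 14 of 15 alpha and 21 of 22 gamma genes, so a read inside them matches nearly all members. Over whole transcripts, a median of 54.9% of all 75-base windows of the alpha genes and 48.2% to 51.9% of those of the gamma A and gamma B genes also occurred in another member, against 8.90% for the beta genes. In the variable first exons alone the medians were 4.14% for alpha, 3.99% for gamma A and 10.2% for gamma B genes, and 0% for the C-type genes. Some beta genes lay above their median, with 34.5% of windows shared for PCDHB8 and 15.3% for PCDHB2. Counts could therefore be split between members by the counting step, in the alpha and gamma clusters and, over fewer windows, among beta genes. The counting tool is not given in the sources used here. How such reads entered the sum over a cluster is likewise not known, and its dependence on the counting step was not tested. Another 15 genes of the minus strand lie within the region, 13 of them antisense transcripts. Since the strand setting was not given either, reads of the antisense transcripts cannot be told apart from those of the plus-strand genes they overlap. The protein-coding genes TAF7 and SLC25A2 lie between the beta and gamma clusters and overlap no member.

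Promoters are shown because PCDHGB4 and PCDHGB5, the gamma B pair with the most alike promoters, sat at very different levels. The 150 bases before the RefSeq start (GRCh38.p14, plus strand) are printed for 4 gamma B genes. Capitals mark the 9-letter element GCGCCGCTG around the conserved core. In PCDHGB7, where the longer element was not found, they mark its only CGCT, which is not at the place of the element. PCDHGB6 has those letters in lowercase, after its element, and PCDHGB7 reads GCGCCGCCG where PCDHGB6 has the element.

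PCDHGB4 promoter, chr5:141387548-141387697: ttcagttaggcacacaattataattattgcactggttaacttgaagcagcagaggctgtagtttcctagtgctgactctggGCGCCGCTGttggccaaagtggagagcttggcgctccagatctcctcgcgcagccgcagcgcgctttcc
PCDHGB5 promoter, chr5:141397797-141397946: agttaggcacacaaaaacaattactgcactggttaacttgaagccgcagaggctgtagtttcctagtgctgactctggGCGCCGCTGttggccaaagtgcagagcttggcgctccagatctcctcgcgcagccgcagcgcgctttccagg
PCDHGB6 promoter, chr5:141407871-141408020: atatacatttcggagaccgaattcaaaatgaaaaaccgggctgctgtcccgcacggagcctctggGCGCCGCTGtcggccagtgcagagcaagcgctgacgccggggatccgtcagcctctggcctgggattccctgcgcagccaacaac
PCDHGB7 promoter, chr5:141417527-141417676: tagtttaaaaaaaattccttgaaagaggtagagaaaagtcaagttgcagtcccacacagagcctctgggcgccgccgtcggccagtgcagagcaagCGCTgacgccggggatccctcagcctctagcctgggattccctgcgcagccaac

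PCDHGB4 and PCDHGB5 were identical in 92.2% of aligned promoter positions (141 of 153), the highest of the 21 gamma B pairs, and both hold the capitalised element. Their levels were 16.5-fold apart, with a mean FPKM of 54.9 for PCDHGB4 and 3.33 for PCDHGB5 over the 3 deeply sequenced libraries. In the variable exon of PCDHGB5, 16.8% of 75-base windows also occurred in PCDHGB4. Reads there could belong to either gene, and their part in the PCDHGB5 value was not tested. FPKM is the deposited value of fragments scaled for transcript length and library size, and it is used wherever 1 gene is compared with another. PCDHGB6 and PCDHGB7 were identical in 77.6% of positions and 1.40-fold apart in FPKM, though in counts PCDHGB7 was the higher of the pair in the deep libraries (223 to 234 CPM against 188 to 197 CPM). Over all gamma B pairs the medians were 53.7% identity and 11.2-fold. In the other large groups the most alike pairs were PCDHA7 and PCDHA9 (66.7%, 1.69-fold), PCDHGA2 and PCDHGA3 (64.6%, 1.13-fold), and PCDHB16 and PCDHB12 (62.3%, 4.41-fold). Median folds there were 4.64 for alpha, 3.34 for gamma A and 4.36 for beta pairs. The alpha and beta elements differ in the letters before the core, as the promoters of a high and a low alpha gene and of the pair of highest beta genes show, with GATGTCGCT and GGTGGCGCT in capitals.

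PCDHA4 promoter, chr5:140806918-140807067: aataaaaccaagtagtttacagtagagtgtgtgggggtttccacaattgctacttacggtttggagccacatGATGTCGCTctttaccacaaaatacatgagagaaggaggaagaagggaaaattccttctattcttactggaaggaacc
PCDHA5 promoter, chr5:140821463-140821612: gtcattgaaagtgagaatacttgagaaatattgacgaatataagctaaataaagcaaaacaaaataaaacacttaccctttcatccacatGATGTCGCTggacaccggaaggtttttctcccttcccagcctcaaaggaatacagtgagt
PCDHB2 promoter, chr5:141094465-141094614: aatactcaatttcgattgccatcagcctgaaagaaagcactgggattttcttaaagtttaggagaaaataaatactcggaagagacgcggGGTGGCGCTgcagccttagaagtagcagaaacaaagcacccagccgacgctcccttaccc
PCDHB5 promoter, chr5:141135056-141135205: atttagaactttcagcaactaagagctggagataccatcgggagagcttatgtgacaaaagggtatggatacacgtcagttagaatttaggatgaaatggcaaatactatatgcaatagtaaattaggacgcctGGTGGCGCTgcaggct

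PCDHA4 and PCDHA5 both carry GATGTCGCT, and their mean FPKM values over the deep libraries were 27.0 and 0.413. In windows of 300 bases around the start, searched on both strands, GATGTCGCT was found in 9 of the 11 alpha genes with a RefSeq promoter and in 0.103% of 27305 promoters. GGTGGCGCT was found in 13 of 14 beta promoters (0.524% of all promoters), and GCGCCGCTG in 6 of 11 gamma A and 4 of 7 gamma B promoters (1.24%). GTGTCGCTG, a near relative, was found in 3 gamma A promoters (0.157%). The core CGCT alone was in 46 of 47 member promoters but also in 69.3% of all promoters. The 9-letter forms were picked after looking at these promoters and overlap the core. Genes with the same element differed widely in level, since those with GATGTCGCT ranged from 0.329 to 27.0 FPKM, those with GGTGGCGCT from 0.375 to 30.4 and those with GCGCCGCTG from 0.443 to 66.2. PCDHA3, PCDHA13, PCDHB6, PCDHB11, PCDHGA12 and PCDHGC5 were not matched to a promoter.

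The CRISPRi libraries summed to 44839748 (replicate 1) and 41560282 (replicate 2) gene counts, and the controls to 944993 and 39325038. Control replicate 1 was thus 41.6 times shallower than the shallowest of the other 3, which are called deep, and a single count there weighs 1.06 CPM, the count relative to its library's total and the scale used to compare libraries. Markers shared by all neurons summed to 17583 to 20824 CPM and those of glutamatergic neurons to 549 to 613 CPM, against 6 serotonergic markers at 19.4 to 30.7 CPM. Inhibitory markers summed to 7.38 to 16.9 CPM with DLX5 at 0 in every library, glial markers to 4.01 to 12.7 CPM, mesenchymal markers to 77.2 to 97.4 CPM and pluripotency markers to 18.0 to 22.9 CPM with TDGF1 at 0 in every library. Markers of dividing cells stood at 39.6 to 42.8 CPM in the deep libraries and at 289 CPM in control replicate 1, with all 6 genes detected in each library. Replicates were biologically independent, per the labels.

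Together the 53 genes made up 1950 and 1917 CPM under CRISPRi against 1649 and 1938 CPM in the controls. The gamma cluster gave the most, with 1154 and 1131 CPM under CRISPRi against 992 and 1149 CPM in the controls. The alpha cluster held 515 and 504 CPM under CRISPRi against 425 and 502 CPM in the controls. The beta cluster held 280 and 282 CPM under CRISPRi against 232 and 287 CPM in the controls. In each cluster the low value was that of control replicate 1, and the other 3 libraries lay close together. The log2 ratios of the group means were 0.14 for alpha, 0.12 for beta and 0.09 for gamma, and without control replicate 1 they were 0.02, -0.03 and -0.01.

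**Figure D1:**
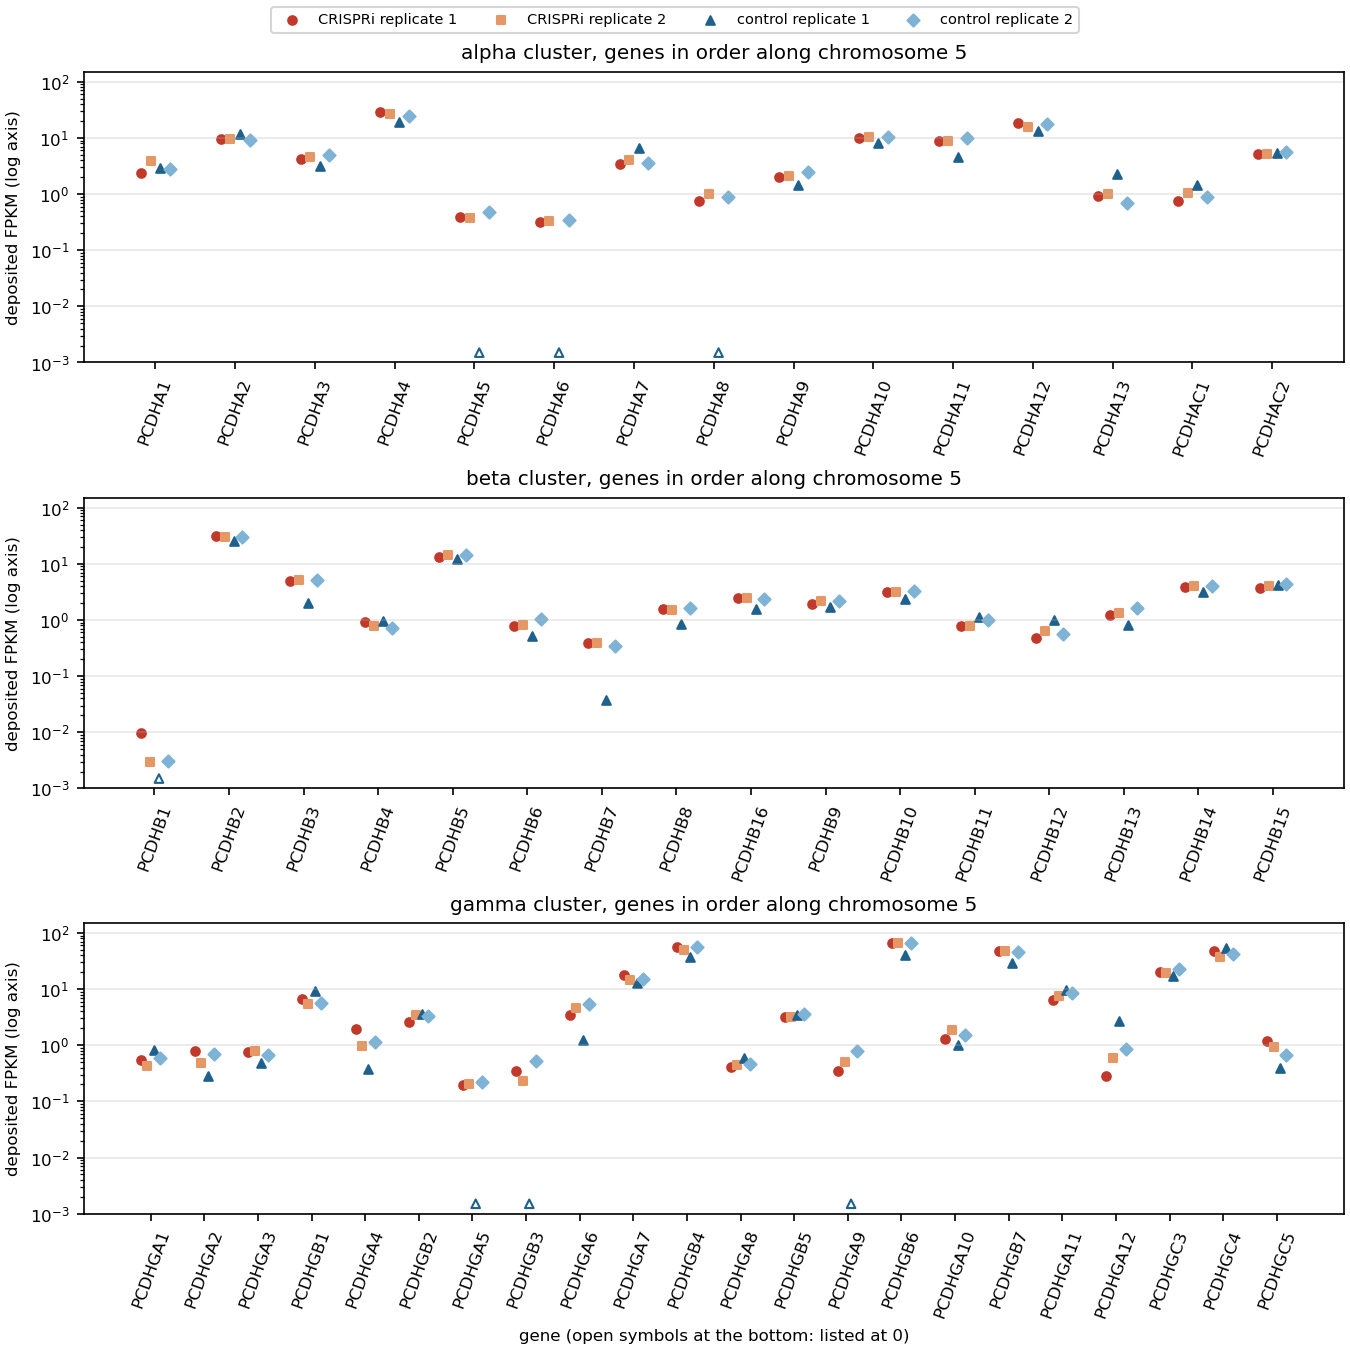
Deposited FPKM (log axis) of each of the 53 genes, in order along chromosome 5, with 1 symbol for each library and open symbols for genes listed at 0. In every cluster a few genes stand far above their neighbours, led by PCDHA4, PCDHB2 and PCDHGB6 in the 3 deep libraries, and control replicate 1 follows the same broad profile with more scatter.

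Use of the clusters was uneven. By FPKM, PCDHA4 and PCDHA12 led the alpha cluster, PCDHB2 and PCDHB5 the beta cluster, and PCDHGB4, PCDHGB6, PCDHGB7 and PCDHGC4 the gamma cluster in all 4 libraries. Among alpha genes the ratio of the highest mean FPKM in the deep libraries (PCDHA4, 27.0) to the lowest (PCDHA6, 0.329) was 82.2, and among gamma genes that of PCDHGB6 (66.2) to PCDHGA5 (0.207) was 320, both by FPKM. The rank order of members by FPKM was close between libraries, with Spearman's rho from 0.946 to 1.00 between deep libraries and from 0.880 to 0.946 with control replicate 1. These correlations describe genes within libraries, and the genes share transcripts and depth. Level did not follow position along the chromosome in the alpha cluster (rho -0.02, 15 genes) or the beta cluster (0.03, 16 genes), and in the gamma cluster rho was 0.39 (22 genes). The number of equally used members that would give the same evenness of counts, an inverse Simpson index, was 5.67 to 6.86 of 15 for alpha, 3.82 to 4.19 of 16 for beta and 6.38 to 6.66 of 22 for gamma.

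Among alpha 1 to 13, PCDHA4 was highest in every library, with FPKM of 29.5 and 26.6 under CRISPRi against 19.0 and 25.0 in the controls (replicate 1 first, here and throughout). PCDHA12 followed at 18.1 and 15.9 under CRISPRi against 13.3 and 17.4 in the controls. PCDHA10 stood at 9.96 and 10.4 under CRISPRi against 8.22 and 10.6 in the controls. PCDHA2 (mean 9.42 over the deep libraries) and PCDHA11 (9.23) lay closer to each other and to PCDHA10 (10.3) than PCDHA12 (17.1) did to any of them. At the other end, PCDHA5, PCDHA6 and PCDHA8 had means of 0.413, 0.329 and 0.889 FPKM over the deep libraries and 0 counts in control replicate 1, where a count of 0 allows up to 3.17 CPM.

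The C-type alpha genes differed from each other. PCDHAC2, known for its part in the tiling of serotonergic axons, was at 5.11 and 5.28 FPKM under CRISPRi against 5.41 and 5.59 FPKM in the controls, and its groups overlapped. PCDHAC1 was lower, at 0.755 and 1.04 FPKM under CRISPRi against 1.47 and 0.897 FPKM in the controls, and its groups overlapped too, as did those of both genes in CPM.

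In the beta cluster, PCDHB2 alone held 46.8% and 44.3% of the cluster's counts under CRISPRi against 45.7% and 43.6% in the controls. The exact 95% binomial interval of the share in control replicate 1, from 219 counts, was 38.9% to 52.5%. On the per-length scale PCDHB2 stood at 31.3 and 29.9 FPKM under CRISPRi against 25.1 and 29.9 FPKM in the controls. PCDHB5 came next at 13.4 and 14.3 FPKM under CRISPRi against 12.3 and 14.5 FPKM in the controls. PCDHB3, PCDHB14, PCDHB15 and PCDHB10 followed with means of 5.08, 3.99, 4.09 and 3.23 FPKM over the deep libraries. PCDHB1, the first gene of the cluster, had 3 and 1 counts under CRISPRi against 0 and 1 in the controls and was the only member too low to be tested.

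**Figure D2:**
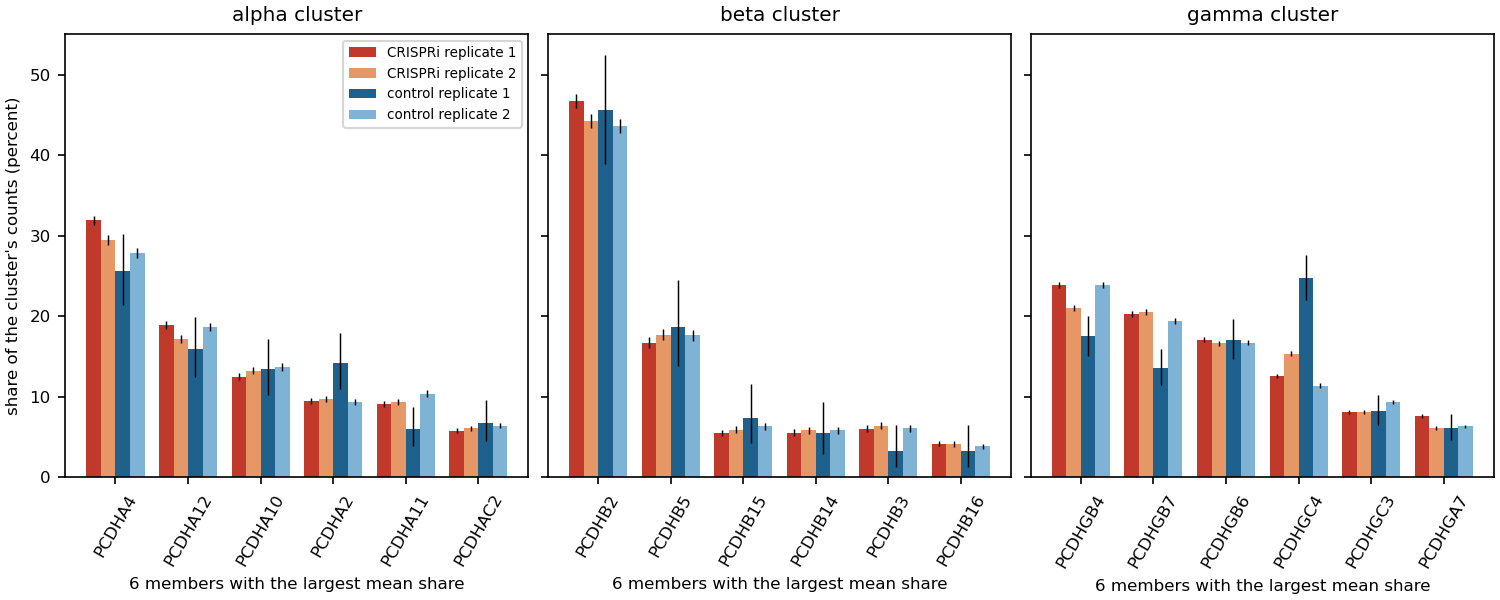
Share of each cluster's counts (percent) held by its 6 leading members in the 4 libraries, with exact 95% binomial intervals as error bars, which cover counting error only. PCDHB2 holds between 43.6% and 46.8% of beta counts in every library, while PCDHGC4 takes 24.8% of gamma counts in control replicate 1 and 11.4% to 15.3% in the others.

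In the deep libraries 3 gamma B genes had the highest FPKM of all members. PCDHGB6 stood at 67.1 and 65.6 FPKM under CRISPRi against 41.0 and 66.1 FPKM in the controls. PCDHGB4 stood at 57.2 and 50.4 FPKM under CRISPRi against 37.2 and 57.3 FPKM in the controls. PCDHGB7 stood at 48.7 and 47.6 FPKM under CRISPRi against 28.8 and 46.2 FPKM in the controls. All 3 were lowest in control replicate 1, in FPKM and in CPM, where PCDHGC4 had the highest FPKM. The place of PCDHGB6 among them turned with the unit, since by counts PCDHGB4 led the gamma cluster in the deep libraries with 21.1% to 23.9% of its counts, against 16.6% to 17.1% for PCDHGB6. The length implied for PCDHGB6 in those libraries was 2869 to 2938 bp, shorter than its transcripts in GENCODE (4599 and 4601 bp). The gamma B genes between them in chromosome order or before them were far lower, with mean FPKM over the deep libraries of 5.90 for PCDHGB1, 3.08 for PCDHGB2, 0.366 for PCDHGB3 and 3.33 for PCDHGB5.

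Gamma A genes interleave with gamma B genes along the chromosome and were mostly low. PCDHGA7 was the highest at 18.0 and 14.3 FPKM under CRISPRi against 12.9 and 14.9 FPKM in the controls. PCDHGA11 was at 6.49 and 7.60 FPKM under CRISPRi against 9.61 and 8.65 FPKM in the controls, and both CRISPRi values were below both control values in FPKM and in CPM. PCDHGA6 was at 3.45 and 4.61 FPKM under CRISPRi against 1.26 and 5.44 FPKM in the controls, the low value resting on 3 counts. The other 9 gamma A genes had means of 0.207 to 1.58 FPKM over the deep libraries.

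Of the C-type gamma genes, PCDHGC4, which is needed for the survival of neurons in mice, and PCDHGC3 were abundant and PCDHGC5 was not. PCDHGC3 had a mean of 20.6 FPKM over the deep libraries and was at 93.5 and 91.8 CPM under CRISPRi against 81.5 and 107 CPM in the controls. PCDHGC5 was at 1.17 and 0.925 FPKM under CRISPRi against 0.390 and 0.679 FPKM in the controls. PCDHGC4 was at 47.2 and 36.9 FPKM under CRISPRi against 54.4 and 42.5 FPKM in the controls. Its promoter is given as that of a C-type gene. None of the 9-letter elements was found in it, in any other matched C-type promoter or in some promoters of the other groups. Capitals mark its only CGCT, letters found in 69.3% of all promoters.

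PCDHGC4 promoter, chr5:141484880-141485029: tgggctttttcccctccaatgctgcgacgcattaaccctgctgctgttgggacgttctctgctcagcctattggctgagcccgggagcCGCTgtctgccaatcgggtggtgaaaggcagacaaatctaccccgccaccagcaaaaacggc

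For PCDHGC4 the order of the libraries depended on the unit. Its counts were 6513 and 7214 in CRISPRi replicates 1 and 2, or 145 and 174 CPM, so the second was higher, whereas its FPKM was lower in the second. The transcript length that ties the deposited count to the deposited FPKM was 3077 bp in CRISPRi replicate 1, 4702 bp in CRISPRi replicate 2 and 3068 bp in control replicate 2, a ratio of 1.53 between longest and shortest. PCDHGB1 showed the same with a ratio of 1.56, and PCDHGB5, PCDHA6, PCDHA8 and PCDHAC1 had ratios over 1.2. No beta gene of 15 did in the deep libraries, the highest ratio among them being 1.01. In control replicate 1, PCDHGB6 had an implied length of 4129 bp against 2869 to 2938 bp in the deep libraries, so its FPKM was low there (41.0 against 65.6 to 67.1) while its CPM was 169 against 188 to 197. Implied lengths of other genes also moved in control replicate 1, on few counts. Among them, PCDHGA6 (3 counts) was at 2529 bp there against 4664 to 4807 bp in the deep libraries. PCDHGC5 (1 count) was at 2714 bp against 4532 to 4733 bp, and the beta gene PCDHB6 (2 counts) at 4111 bp against 3300 to 3317 bp. The FPKM of such genes thus carries a length that differed between libraries, and the tests between groups used counts only.

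**Figure D3:**
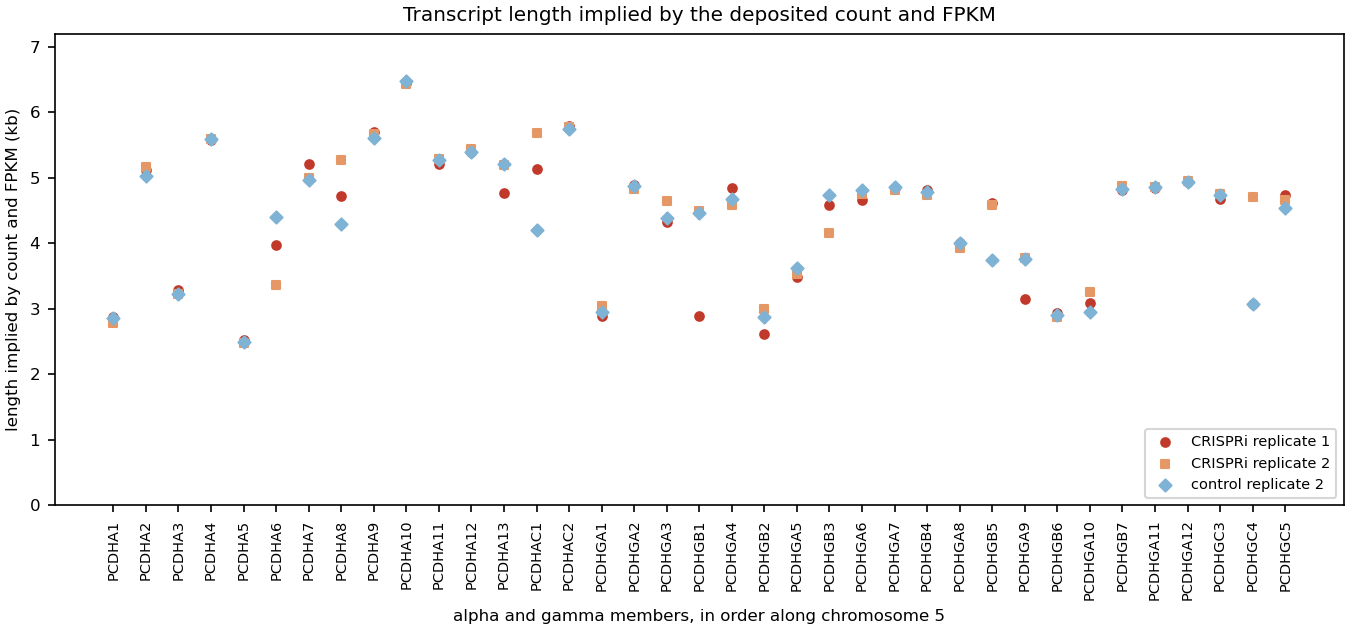
Length in kb implied by the deposited count, FPKM and library total for each alpha and gamma gene in the 3 deep libraries. Symbols overlap for most genes, and PCDHGC4 and PCDHGB1 are each apart by over 1.5 times in a single library.

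No clustered protocadherin passed the test for a change with CRISPRi, a quasi-likelihood F test in edgeR adjusted over all 15708 tested genes. Of 52 members tested, 0 were called higher (background 0.0% of all tested genes) and 0 lower (background 0.0255%, 4 genes). Before adjustment 0 members were under 0.05 by edgeR, against 151 of all 15708 tested genes, so such values were rare among all genes too. The count was 0 also by DESeq2 (background 0.00562% higher and 0.0675% lower) and by limma-voom (0.0% and 0.0127%). The median log2 fold change of CRISPRi over control was -0.01 over the members and 0.01 over all tested genes, with 25 members positive and 27 negative. Values ran from -1.53 (PCDHGA12) to 0.83 (PCDHGC5). For 30 of the 52 members the 95% confidence interval lay within -1 and 1, so that changes of over 2-fold lay outside it, and for the other 22 they did not. By group such narrow intervals were found for 9 of 13 alpha, 1 of 2 alpha C, 10 of 15 beta, 2 of 12 gamma A, 6 of 7 gamma B and 2 of 3 gamma C genes.

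**Figure D4:**
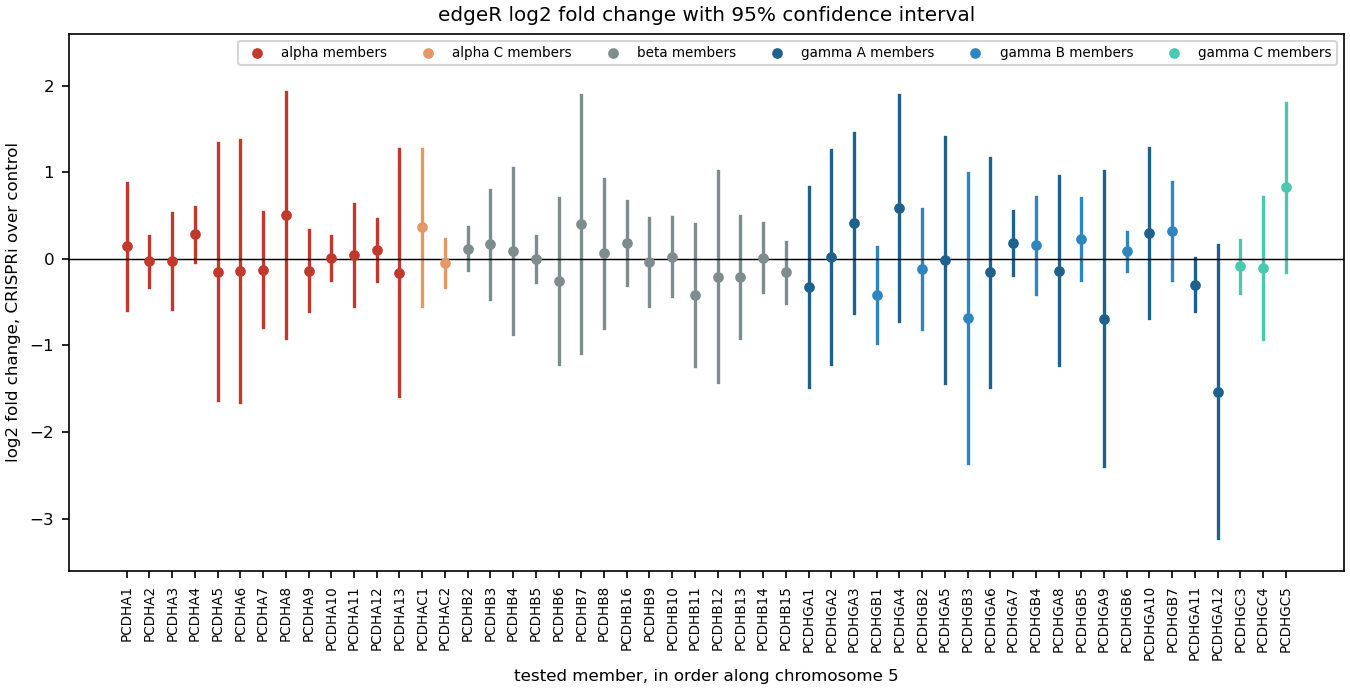
Log2 fold change of CRISPRi over control from edgeR for the 52 tested members in order along chromosome 5, with 95% confidence intervals as bars and colours for the groups of members. Every interval includes 0, and the 3 widest belong to PCDHGA9, PCDHGA12 (at -1.53) and PCDHGB3.

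Both CRISPRi libraries were above both controls in CPM for 7 members (13.5%, background 17.8%) and below both for 7 (13.5%, background 16.5%), shares near or under those of all genes. The most abundant alpha gene, PCDHA4, was among the former, with 164 and 148 CPM under CRISPRi against 109 and 140 CPM in the controls. Its log2 fold change was 0.29 (SE 0.13, 95% confidence interval -0.03 to 0.60, adjusted p = 1.00 by edgeR), and without control replicate 1 it was 0.17. PCDHGB7, at 234 and 232 CPM under CRISPRi against 134 and 223 CPM in the controls, had a log2 fold change of 0.32 (interval -0.25 to 0.89), which was 0.07 without control replicate 1. PCDHGC5, at 5.55 and 4.31 CPM under CRISPRi against 1.06 and 3.08 CPM in the controls, had a log2 fold change of 0.83 (interval -0.15 to 1.81), and its value in control replicate 1 was a single count. For PCDHA4 and PCDHGB7 the remaining control then lay below both CRISPRi libraries by a smaller margin.

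The smallest p of all members was that of PCDHGA11, at 31.4 and 36.9 CPM under CRISPRi against 43.4 and 42.1 CPM in the controls. Its log2 fold change was -0.30 (SE 0.12, interval -0.60 to 0.01, unadjusted p = 0.053 and adjusted p = 1.00 by edgeR), and it was negative without each library in turn (-0.43 to -0.19). PCDHGA12 was at 1.41 and 2.98 CPM under CRISPRi against 12.7 and 4.22 CPM in the controls, from 63, 124, 12 and 166 counts. Its log2 fold change of -1.53 (interval -3.23 to 0.16) ranged from -2.51 to -0.94 when 1 library was left out. PCDHGB1, at 19.2 and 23.9 CPM under CRISPRi against 40.2 and 25.5 CPM in the controls, had a log2 fold change of -0.41 (interval -0.97 to 0.14), which was -0.24 without control replicate 1. In these 3 genes both CRISPRi libraries lay below both controls.

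Intervals were narrow for most of the abundant genes. The log2 fold change was 0.09 for PCDHGB6 (interval -0.14 to 0.31), from 197 and 188 CPM under CRISPRi against 169 and 192 CPM in the controls. PCDHB2, at 131 and 125 CPM under CRISPRi against 106 and 125 CPM in the controls, had 0.12 (interval -0.13 to 0.36). PCDHAC2, at 29.5 and 30.5 CPM under CRISPRi against 28.6 and 32.1 CPM in the controls, had -0.05 (interval -0.33 to 0.23). PCDHA10 had 0.01 (interval -0.25 to 0.26), PCDHA12 0.10 (-0.26 to 0.47), PCDHB15 -0.15 (-0.50 to 0.20), PCDHGA7 0.19 (-0.18 to 0.56) and PCDHGC3 -0.09 (-0.39 to 0.22). For PCDHB5 the interval was -0.26 to 0.26. None of these 9 intervals reaches 1 in either direction.

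Wider intervals went with low counts or with a library that stood apart. PCDHGB4, at 275 and 238 CPM under CRISPRi against 174 and 274 CPM in the controls, had a log2 fold change of 0.16 (interval -0.40 to 0.72). PCDHGC4, at 145 and 174 CPM under CRISPRi against 246 and 130 CPM in the controls, had -0.11 (interval -0.93 to 0.71), and without control replicate 1 the sign turned (0.30). PCDHA11 had 0.05 (-0.54 to 0.63), PCDHAC1 0.36 (-0.54 to 1.27), PCDHA8 0.50 (-0.92 to 1.93), PCDHB11 -0.42 (-1.24 to 0.41) and PCDHGA6 -0.15 (-1.48 to 1.17). When control replicate 2 was left out, so that the shallow library stood alone for the controls and was taken to vary as the CRISPRi libraries do, 3 members were called higher by edgeR (5.77%, background 3.61%) and 0 lower (background 4.97%). These were PCDHA4 (log2 fold change 0.55, adjusted p = 0.029), PCDHA11 (0.91, adjusted p = 0.014) and PCDHGB7 (0.82). With control replicate 1 left out instead, 0 members were called (background 0.437% higher and 0.222% lower), and the log2 fold changes of these 3 genes were 0.17, -0.14 and 0.07.

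The shallow control differed from the deep libraries in which gamma genes it held. Set against the pooled deep libraries scaled to its depth, control replicate 1 had 232 PCDHGC4 counts where 142 were expected (ratio 1.64, exact 95% Poisson interval 1.43 to 1.86, counting error of this library only). The gamma B genes together were at 0.73 of the expected counts (interval 0.67 to 0.80), with PCDHGB7 at 0.59 and PCDHGB4 at 0.66. The gamma C genes together were at 1.30 (interval 1.16 to 1.46). By cluster the ratios were 0.84 for alpha, 0.82 for beta and 0.87 for gamma. Of the 53 members 5 had an interval above 1 (PCDHA7, PCDHA13, PCDHGB1, PCDHGA12 and PCDHGC4), 9 below 1 and 39 around 1. Of all 15708 tested genes 11.8% had such an interval above 1 and 7.51% below 1, against 9.62% and 17.3% of the 52 tested members. Among the 9794 genes with at least 10 expected counts, 1243 were above and 979 below, and of the 26 members among them 3 were above and 7 below. These shares describe a single library and were not tested. Markers of dividing cells were also higher in that library (289 CPM against 39.6 to 42.8), and their part in these values was not tested.

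Among the 3 deep libraries, most gamma genes varied more than the median gene of like depth. The ratio of the highest to the lowest CPM had a median of 1.08 over 14008 genes with at least 30 counts in each deep library, 1.14 over beta genes, 1.17 over alpha 1 to 13, 1.16 over gamma B and 1.45 over gamma A genes. It was over 1.5 for 11 of 52 members (21.2%) against 4.22% of all genes. Since low counts raise this ratio, genes were also compared within bins of mean count, where 13 of 22 gamma, 5 of 15 alpha and 0 of 15 beta genes lay above the 95th percentile of all genes in their bin. Of the gamma genes 20 of 22 lay above the median of their bin, of the alpha genes 13 of 15 and of the beta genes 9 of 15. In the range of 3000 to 30000 counts the median ratio was 1.16 over 6 gamma genes and 1.05 over 3365 genes. These are descriptions of 3 libraries from both groups, with no test. Beta genes have no shared exon, alpha and gamma genes do, and the part of that sharing in the spread was not tested.

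**Figure D5:**
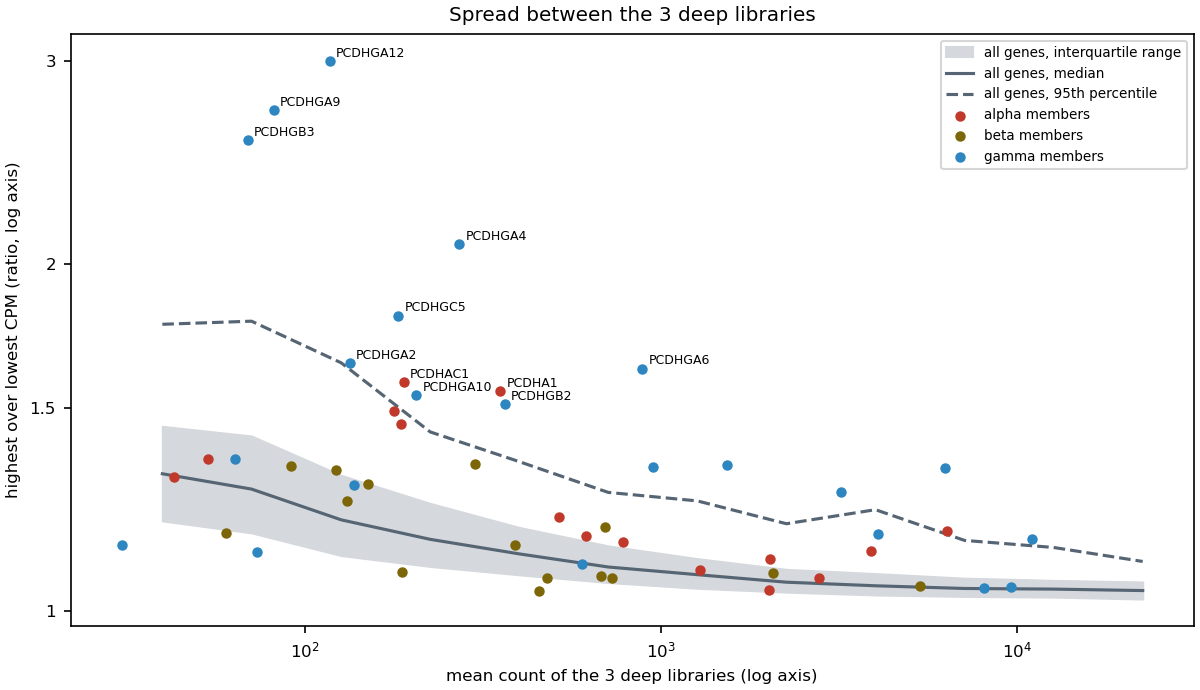
Ratio of the highest to the lowest CPM among the 3 deep libraries (log axis) against mean count (log axis) for the 52 members with at least 30 counts in each, with the median, quartiles and 95th percentile of all genes by bins of mean count. Gamma A genes lead, from PCDHGA12 at 3.00, while beta genes keep to the band of all genes or near it.

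The members with the widest swings did not share a direction. PCDHGA12 had 1.41 CPM in CRISPRi replicate 1, 2.98 CPM in CRISPRi replicate 2 and 4.22 CPM in control replicate 2, a ratio of 3.00. PCDHGA9 had the same order, at 1.09, 1.92 and 2.98 CPM, from 49, 80 and 117 counts. PCDHGA4 was instead highest in CRISPRi replicate 1, at 9.37 CPM against 4.50 and 5.29 CPM. PCDHGB3 was lowest in CRISPRi replicate 2, at 0.962 CPM against 1.58 and 2.47 CPM. At higher counts, PCDHGA6 was at 16.1, 21.9 and 26.1 CPM and PCDHGC4 at 145, 174 and 130 CPM. For PCDHGA4 the CRISPRi replicates were farther apart than either was from the deep control.

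Genes that act on the clustered protocadherins, or lie around them, also gave no call. Of 77 genes in 6 lists, 74 were tested and 0 called by edgeR (background 0.0% of all tested genes higher and 0.0255% lower). Before adjustment 1 was under 0.05, against 151 of all 15708 tested genes. For the 13 CTCF and cohesin genes the median log2 fold change was -0.06. STAG1, a cohesin subunit, was at 0.15 (0.06 to 0.49 with 1 library left out) and the cohesin loader MAU2 at -0.10 (-0.15 to -0.08). Without control replicate 2, the cohesin subunits SMC3 and STAG2 were at -0.44 and -0.50, and without control replicate 1 at 0.04 and 0.08. For the 10 genes of silencing and DNA methylation the median was -0.02, with the methyltransferases DNMT1 at -0.21 and DNMT3A at 0.19. Without control replicate 1 these were -0.08 and 0.06, and without control replicate 2 they were -0.48 and 0.47. For 23 partners in signalling, which include the kinases and the WAVE complex that bind the cytoplasmic tails, it was 0.03, with PTK2B at -0.22 (-0.52 to -0.13 with 1 library left out) and BRK1 at 0.10 (0.06 to 0.17). The 18 tested neighbours on chromosome 5 had a median of -0.03, with TMCO6 at -0.40 (-0.90 to -0.23 with 1 library left out) and DIAPH1 at -0.25. DIAPH1 was at -0.01 without control replicate 1 and at -0.76 without control replicate 2. Of the relic members, PCDHB18P was at -0.43 and PCDHB19P at 0.16, each on 41 or fewer counts per library.

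The 7 genes that shed and cleave protocadherins had a median of -0.04. ADAM10, the protease that sheds their ectodomains, was at 71.8 and 73.0 CPM under CRISPRi against 87.8 and 94.4 CPM in the controls, so both CRISPRi values lay below both controls. Its log2 fold change was -0.34 (SE 0.08, interval -0.54 to -0.15, unadjusted p = 0.0055 and adjusted p = 1.00 by edgeR), and without control replicate 1 it was -0.38. APH1A, a gamma-secretase subunit, was at 28.1 and 27.1 CPM under CRISPRi against 99.5 and 29.5 CPM in the controls. Its log2 fold change of -0.77 became -0.09 without control replicate 1 and -1.82 without control replicate 2.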

How the data were processed

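Gene expression was measured by paired-end 75 bp polyA RNA sequencing in 2 CRISPRi and 2 control libraries of i3N-WTC11 neurons. The submitters' processing notes name hg38, edgeR and limma; aligner, counter and strandedness are not given in the sources used here. For each gene row the authors deposited a read count and an FPKM, and the FPKM unit was read from the column's values and place. Counts were summed per symbol over all rows and scaled to CPM. The groups were compared with edgeR 4.0.16 (R 4.3.3): genes were kept by filterByExpr, libraries scaled by TMM, and a robust quasi-likelihood F test adjusted by Benjamini and Hochberg over all tested genes, with a threshold of 0.05. Standard errors and 95% intervals derive from the F statistic. The test was tried on simulated counts. An exact permutation test (two-sided) of 2 against 2 libraries has a smallest p of 0.333 and is not given. Fold changes weight libraries by depth.

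The members and lists were chosen with earlier results of these data known. Described in full are the C-type members, the 3 with the highest mean CPM and the 2 with the smallest p in each other group, any called when 1 library was left out, and the 2 genes of smallest p in each related list; other genes named were chosen after their values were seen. Alternatives were other scalings and filters, DESeq2 1.42.0, limma-voom 3.58.1, a replicate block, main chromosomes only, thinning, each library left out, and FPKM shares, the last added after seeing the data. Shared exons and windows come from GENCODE release 29, promoters from RefSeq (47 of 53 members matched).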

Additional observations from a re-analysis of the deposited data

How the results depend on the processing

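Under every scaling, filter and tool run, with the replicate block, on main chromosomes and after thinning, 0 members were called in either direction; leaving out 1 library gave 0 to 3 called higher and 0 lower. Among all genes, 0 were called higher, but 1 by DESeq2, 17 with the replicate block and 2 to 580 with 1 library left out; 4 were called lower, but 12 by DESeq2, 2 by limma-voom, 25 with the block, 7 after thinning and 15 to 798 with 1 library left out. Related genes called numbered 0, or 0 to 8 with 1 library left out. The highest number of related genes came without control replicate 2, where the shallow library stood alone for the controls. Calls among all genes were also most frequent there, so no excess of related genes is read from that number. The members' median log2 fold change of -0.01 ran from -0.0595 to 0.37 with 1 library left out, the highest without control replicate 2, and was 0.10 with the block. Summed by cluster, the log2 ratio ran from 0.0215 to 0.26 for alpha, from -0.0303 to 0.28 for beta and from -0.0081 to 0.20 for gamma; it has no value under the filters, DESeq2, limma-voom or the block. The share of PCDHB2 was 45.1% of beta counts and 42.6% of beta FPKM; the planned share by gene length was not run, as the files hold no lengths. The labels share replicate numbers but pair nothing, and same-numbered libraries deviated with a correlation of -0.03 over 15708 genes.

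Of 281 values for the 22 members described in full, 253 kept direction and side of the threshold, 3 passed it and 25 changed sign; the cause was not tested. Signs turned for PCDHA10 (total-count scaling -0.0032, limma-voom -0.0489), PCDHA11 (limma-voom -0.0946, thinned -0.0882), PCDHB5 (DESeq2 0.0204, replicate block 0.0449), PCDHGA6 (DESeq2 0.33, replicate block 0.34, thinned 0.58), PCDHGB4 (limma-voom -0.0158), PCDHGC3 (thinned 0.0358) and PCDHGC4 (limma-voom 0.20). With 1 library left out, values ran from -0.0610 to 0.23 for PCDHA10, -0.14 to 0.91 for PCDHA11, -0.0198 to 0.47 for PCDHA12, -0.0052 to 0.62 for PCDHAC1, -0.0895 to 0.10 for PCDHAC2, -0.0581 to 0.19 for PCDHB5, -0.45 to 2.61 for PCDHGA6, -0.0894 to 0.59 for PCDHGB4, -0.20 to 0.22 for PCDHGC3 and -0.59 to 0.30 for PCDHGC4. Of 151 values for 12 related genes 142 kept direction and side, 5 passed the threshold and 4 changed sign, all of PCDHB19P (DESeq2 -0.0275, limma-voom -0.29, and -0.53 to 0.24 with 1 library left out). Thinning left 26 members tested. In control replicate 1 a count of 0 allows up to 3.17 CPM, so for members below that level, such as PCDHB7, PCDHGA1 and PCDHGA8 among those whose groups did not overlap, the order of the groups rests on 2 or fewer counts there.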
